A study of Homo sapiens with 6 samples.

Results

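RAB GTPases are small G proteins that give membranes inside the cell their identity. A RAB carries a lipid (prenyl) anchor, sits on a membrane while bound to GTP, and recruits effector proteins that bud, move, tether or fuse vesicles. Exchange factors load the GTP, GTPase-activating proteins end the active state, and chaperone proteins take the GDP-bound RAB back off the membrane. Each RAB is best known for 1 or a few compartments: RAB5 proteins for early endosomes, RAB11 proteins for recycling endosomes, RAB7A for late endosomes and lysosomes, RAB3 and RAB27 proteins for secretion, and RAB1, RAB2 and RAB6 proteins for the ER and Golgi.

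The RAB genes were taken from the deposited gene table by symbol, as RAB followed by digits with an optional letter and digit, leaving out effectors and pseudogenes, and those whose 6 libraries averaged less than 1 were dropped. Of 63 rows with such a symbol, 2 were pseudogenes and 2 had a mean under 1, so that 59 RAB genes of 27394 genes in the table were kept. RAB38 entered with a mean of 1.002, while RAB44 at 0.980 and RAB3C at 0.329 were left out. The rule used the level over all 6 libraries and not the difference between the groups.

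The libraries were made from PANC-1, a human pancreatic cancer cell line, in which ZDHHC20 was silenced by short hairpin RNA (shZDHHC20, n = 3) or a control hairpin was delivered (shControl, n = 3). ZDHHC20 is a palmitoyl acyltransferase, an enzyme that attaches a fatty acid to cysteines of proteins. The medium was RPMI-1640 with serum by the labels, while the study's methods give DMEM for its cell lines. All libraries came from this 1 line, and which hairpin was used for them is not given in the sources used here. The study's methods speak of biological replicates for its in vitro experiments in general and not of these libraries, so p-values measure the spread between these libraries, which may be technical. In total RNA of whole cultures, fewer cells of a type and less RNA per cell cannot be told apart.

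Values are normalized counts: each library's gene counts were scaled by a size factor, with no correction for gene length. The libraries held 16575546 to 18441049 recovered reads. ZDHHC20 itself was at 2001, 2033 and 1940 in shControl and at 872, 779 and 893 in shZDHHC20, or 42.6% of control (log2 fold change -1.23, limma adjusted p = 4.36e-07). Of 5 markers of duct-like epithelium, KRT8, KRT18, KRT19 and SOX9 had means of at least 100, with the list summing to 84334 to 86590 in shControl and 78101 to 79132 in shZDHHC20. Of these 5 genes 1 was called, and the part of this difference in the results below was not tested. The lists for acinar cells, leukocytes, endothelium and fibroblasts summed to at most 48.8 in any library, and no gene of them was called. The library of shZDHHC20 replicate 2 stood apart from the other two of its group: the SD of log2 differences over 4136 genes was 0.178 and 0.198 against replicates 1 and 3, and 0.0722 between those 2. Its mitochondrial share was 4.01%, compared with 5.28% to 5.52% in the other libraries.

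Silencing of ZDHHC20 went with changes in 13 of the 59 RAB genes, of which 4 were higher (RAB5A, RAB22A, RAB11A and RAB17) and 9 were lower (RAB7A, RAB29, RAB31, RAB21, RAB11B, RAB3B, RAB8B, RAB26 and RAB2B) at a limma adjusted p under 0.05. This was 22.0% of the RAB genes, beside 11.5% of the 22189 genes tested (4.61% higher and 6.84% lower). RAB genes were well expressed, and the share called rose with the level of a gene: 12 of 42 RAB genes with a mean of at least 100 were called, or 28.6%, beside 21.7% of all genes at that level, and 1 of 17 below it, beside 1.57%. The median log2 fold change of the RAB genes was -0.07, beside 0.01 over all genes tested. Of the RAB genes 38 lay below 0 and 21 above, beside 10722 below and 11467 above among all genes tested. In 21 of 59 RAB genes the groups did not overlap, beside 28.6% of all genes tested. edgeR's quasi-likelihood test on the recovered reads also called 13 RAB genes, the same genes, with 12.3% of all genes called. Without shZDHHC20 replicate 2, 20 RAB genes were called, and 19.9% of all genes. Without shControl replicate 1, shControl replicate 3 or shZDHHC20 replicate 1, 8 RAB genes were called each time, with 4.75%, 5.04% and 6.02% of all genes, and without shControl replicate 2 or shZDHHC20 replicate 3 there were 10 and 11, with 5.26% and 8.03%. Without the mean-variance trend in limma's moderation RAB7A alone was called, with 351 genes in all (1.58%).

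**Figure D1:**
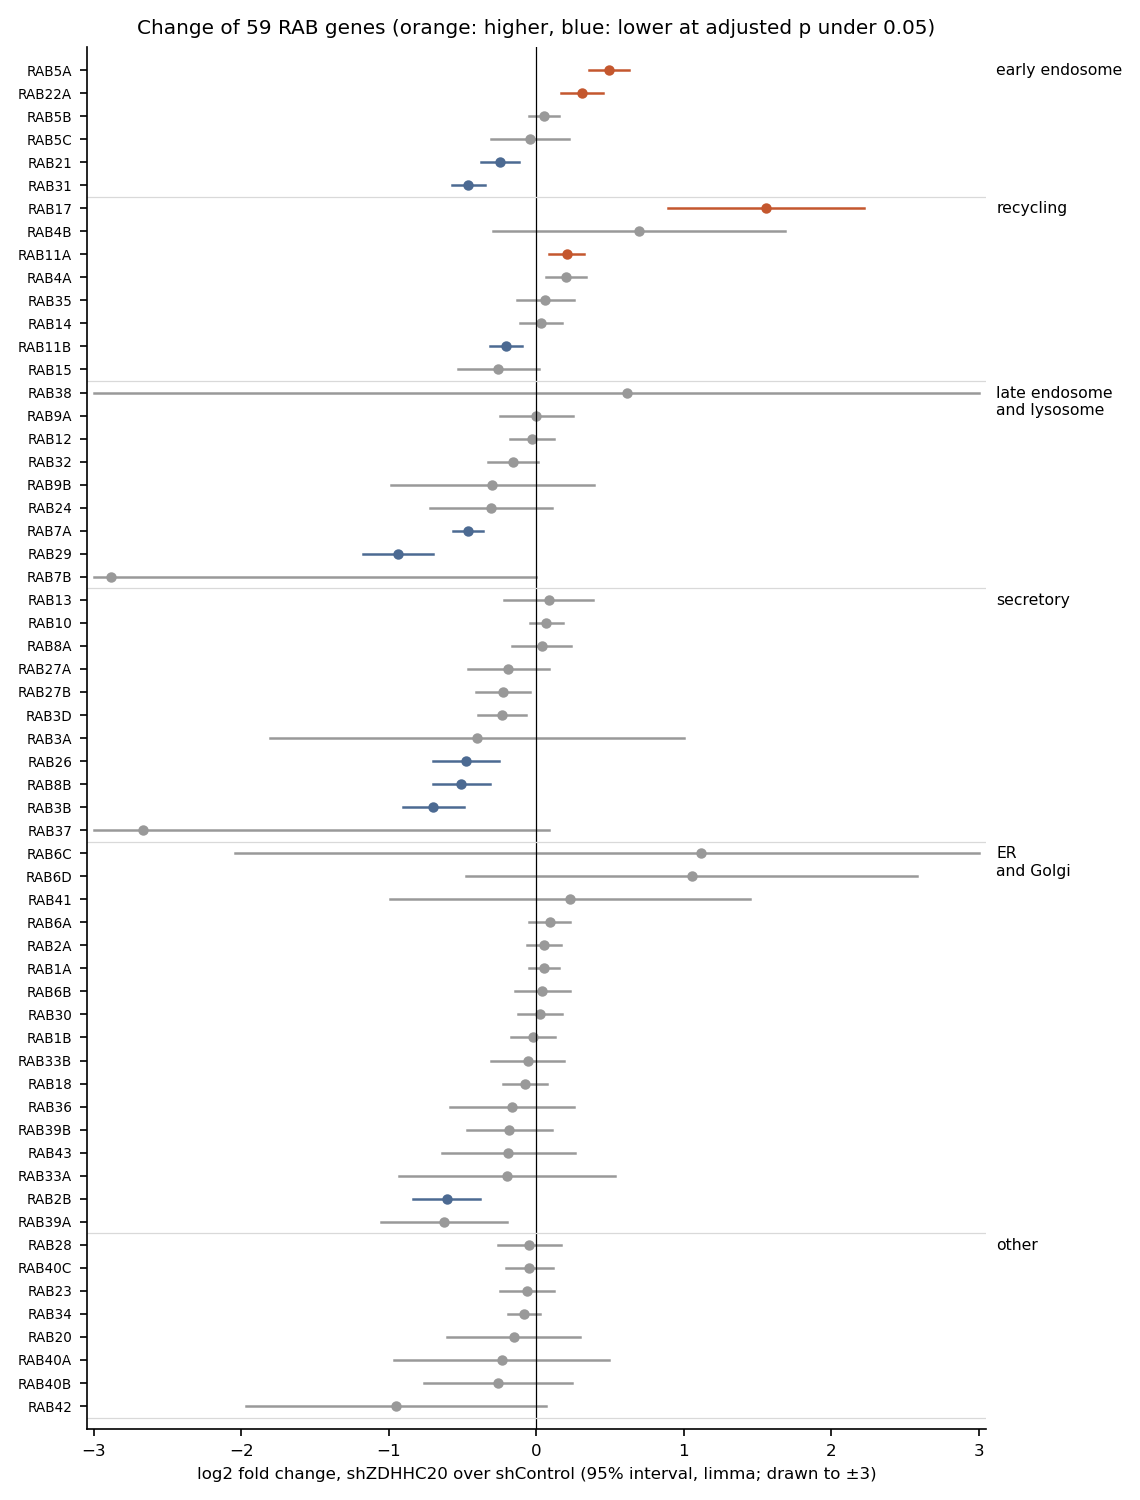
Log2 fold change of each of 59 RAB genes (shZDHHC20 over shControl, x axis, with the 95% interval from limma), grouped by an assigned compartment. Some RABs are known at several sites. Orange points were higher and blue points lower at an adjusted p under 0.05, and intervals beyond 3 in either direction are drawn to 3. The early endosome group holds 2 higher and 2 lower genes, and the recycling group 2 higher and 1 lower. The late endosome, secretory and ER and Golgi groups hold lower genes and no higher one. Of all genes tested, 4.61% were called higher and 6.84% lower.

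The calls are given by compartment, with each RAB put in 1 list although some are known at several sites. RAB29, also known at the trans-Golgi network, was counted with late endosomes and lysosomes, and RAB39A, also known at endosomes, with the ER and Golgi. Among early endosome RABs, 2 of 6 were higher and 2 lower (median log2 fold change 0.01), and among recycling RABs 2 of 8 were higher and 1 lower (median 0.13). Among late endosome and lysosome RABs, none of 9 was higher and 2 were lower (median -0.30, 8 of 9 below 0). That median is the value of RAB9B, which had a mean of 30.5 and was not called (limma adjusted p = 0.628). The 8 below 0 include RAB9A at -0.00022. Among secretory RABs none of 11 was higher and 3 were lower (median -0.23, 8 of 11 below 0). Of all 22189 genes tested, 10722 lay below 0. Of 17 ER and Golgi RABs 1 was lower (median -0.02), and of 8 other RABs none was called by limma or edgeR, with all 8 below 0 (median -0.12). At an unadjusted limma p under 0.05, late endosome RABs had 0 higher and 3 lower, secretory RABs 0 higher and 5 lower, and other RABs 0 in either direction, beside 23.8% of all genes tested (11.2% higher and 12.6% lower). Counting those whose mean reached 100, 4 of 6 early endosome, 2 of 6 recycling, 2 of 6 late endosome, 3 of 9 secretory, 1 of 10 ER and Golgi and 0 of 5 other RABs were called, beside the 21.7% of all genes at that level. These lists are small, and a difference between them, or between a list and all genes, was not tested.

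Summed per kb of exon, which lets genes of different length be added, the late endosome and lysosome RABs were at 2609 ± 25.0 in shControl and 2087 ± 84.0 in shZDHHC20 (SD, n = 3), or 80.0% of control. RAB7A alone accounted for 383 of the difference of 522, and the other 8 genes summed to 1214 ± 29.6 and 1076 ± 88.4, or 88.6%. The secretory RABs summed to 2255 ± 16.7 and 2081 ± 68.4, or 92.3% of control. The 8 other RABs summed to 1324 ± 32.2 and 1253 ± 26.9, or 94.6%. The groups did not overlap for any of these 3 sums. For the early endosome RABs (1878 ± 41.8 and 1833 ± 38.0), the recycling RABs (2236 ± 42.2 and 2256 ± 3.59) and the ER and Golgi RABs (3888 ± 51.5 and 3898 ± 86.4) the groups overlapped. The whole family took 0.299% ± 0.00271 of all values in shControl and 0.294% ± 0.00329 in shZDHHC20, with overlapping ranges. With mitochondrial values left out, the shares were 0.315%, 0.319% and 0.313% in shControl. They were 0.307%, 0.310% and 0.311% in shZDHHC20, and the groups then did not overlap.

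**Figure D2:**
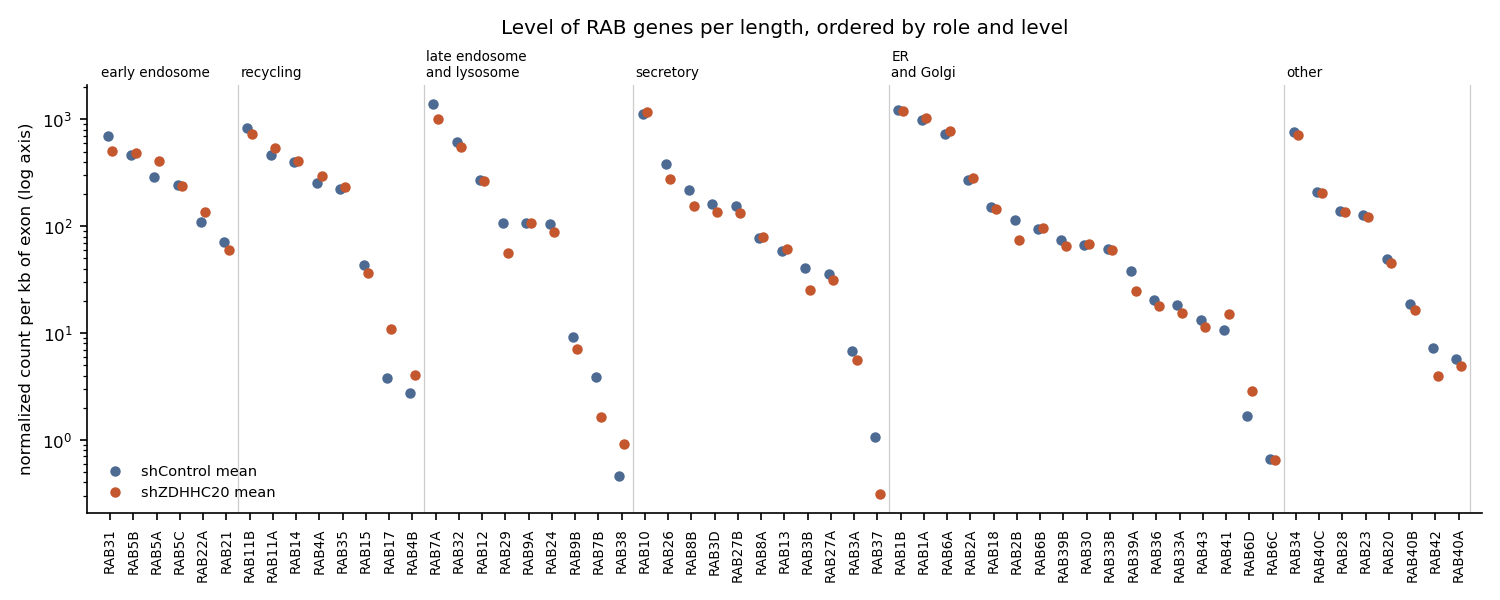
Mean level of each RAB gene per kb of exon (log axis) in shControl (blue) and shZDHHC20 (orange), ordered by compartment and then by the shControl level. RAB7A has the highest shControl level of the family, 1395, and falls to 1012, and the levels of most ER and Golgi RABs coincide in both groups.

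The strongest evidence for a change was in RAB7A, RAB31, RAB29 and RAB5A, which had the 4 smallest adjusted p-values of the family. Their promoters, from 250 bases before the transcription start to 50 bases after it, are shown because these genes moved in different directions. They were read from RefSeq on GRCh38.p14, 5′ to 3′ along each gene's strand, and capitals mark CACGTG, the E-box, a short element known as a site for MYC and for other basic helix-loop-helix factors.
RAB7A (lower; chr3:128725933-128726232, plus strand): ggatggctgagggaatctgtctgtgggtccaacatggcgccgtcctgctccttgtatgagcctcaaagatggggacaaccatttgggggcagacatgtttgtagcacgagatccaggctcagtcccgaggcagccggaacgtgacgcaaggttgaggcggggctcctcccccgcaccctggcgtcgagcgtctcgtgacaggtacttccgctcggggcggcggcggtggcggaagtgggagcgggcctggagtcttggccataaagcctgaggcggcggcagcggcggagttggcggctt
RAB29 (lower; chr1:205775433-205775732, minus strand): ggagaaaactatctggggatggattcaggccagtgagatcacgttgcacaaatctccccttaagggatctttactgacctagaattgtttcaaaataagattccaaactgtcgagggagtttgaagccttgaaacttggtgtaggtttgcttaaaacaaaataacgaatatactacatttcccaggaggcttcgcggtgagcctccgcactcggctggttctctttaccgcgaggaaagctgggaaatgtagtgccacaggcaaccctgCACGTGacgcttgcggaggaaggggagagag
RAB31 (lower; chr18:9708051-9708350, plus strand): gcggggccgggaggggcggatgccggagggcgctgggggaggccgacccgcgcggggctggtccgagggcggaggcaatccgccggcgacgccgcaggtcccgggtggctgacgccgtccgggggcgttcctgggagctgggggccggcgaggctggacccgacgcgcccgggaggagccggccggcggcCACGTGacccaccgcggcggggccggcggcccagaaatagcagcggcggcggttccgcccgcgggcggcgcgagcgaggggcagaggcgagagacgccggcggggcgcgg
RAB5A (higher; chr3:19946847-19947146, plus strand): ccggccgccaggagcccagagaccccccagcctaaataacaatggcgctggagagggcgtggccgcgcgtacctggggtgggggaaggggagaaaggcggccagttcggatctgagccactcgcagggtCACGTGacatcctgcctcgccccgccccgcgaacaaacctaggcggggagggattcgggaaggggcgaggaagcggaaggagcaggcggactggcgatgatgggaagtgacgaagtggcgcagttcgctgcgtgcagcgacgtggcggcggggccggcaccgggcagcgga
The E-box lies 19 bases after the start in RAB29, 60 bases before it in RAB31 and 121 bases before it in RAB5A, and these letters are not in the RAB7A window. Their GC contents were 65.0%, 48.3%, 82.7% and 69.3% in the order shown.

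Promoters were found for 47 of the 59 RAB genes, and both strands were searched. CACGTG was in 6 of the 47, or 12.8% (RAB5A, RAB21, RAB29, RAB31, RAB4A and RAB24), beside 7.26% of 35116 promoters of the same length. Of these 6 genes RAB5A was higher, RAB21, RAB29 and RAB31 were lower, and RAB4A and RAB24 were not called. The longer TCACGTGA, which contains the E-box, was in RAB21 and RAB5A, 1 lower and 1 higher gene, or 4.26% of the RAB promoters beside 0.980% of all. GGGCGG, the GC box known as a site for SP1-type factors, was in 38 of 47 RAB promoters, or 80.9%, beside 45.0% of all, and the RAB promoters had a median GC content of 65.7% beside 58.7% of all. The 35116 promoters were not limited to expressed genes or to 1 promoter per gene, as the RAB promoters were, so these shares compare unlike sets. A match is a description of the letters only.

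On early endosomes, RAB5A, which drives fusion of incoming vesicles with early endosomes, was higher, and its paralogs were not called. RAB5A (ENSG00000144566) was at 1033, 1128 and 1128 in shControl and at 1486, 1523 and 1620 in shZDHHC20. All 3 shZDHHC20 libraries lay above all 3 shControl libraries. The log2 fold change was 0.49 ± 0.0626 (SE, limma adjusted p = 0.00023). RAB5B, the most abundant of the 3 RAB5 genes per kb in both groups, was at 3052 ± 65.9 and 3170 ± 22.3 (SD, n = 3; log2 fold change 0.05, limma adjusted p = 0.531). RAB5C was at 718, 657 and 636 in shControl and at 570, 833 and 575 in shZDHHC20, where replicate 2 was the highest library of all 6 and replicates 1 and 3 were the lowest. Its log2 fold change was -0.04 over all libraries (limma adjusted p = 0.874) and -0.22 without shZDHHC20 replicate 2 (limma adjusted p = 0.033). Summed per kb, the 3 RAB5 genes were at 996 ± 12.2 in shControl and 1128 ± 54.8 in shZDHHC20, or 113% of control, with no overlap.

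RAB22A and RAB31, close relatives that act between early endosomes and, respectively, the recycling route and the trans-Golgi network, moved in opposite directions. RAB22A (ENSG00000124209) was at 1022, 1017 and 1006 in shControl and at 1302, 1161 and 1317 in shZDHHC20. RAB31 (ENSG00000168461) was at 3993, 4053 and 3719 in shControl and at 2851, 2739 and 2954 in shZDHHC20. Neither gene's groups overlapped. RAB22A rose by 0.31 ± 0.0649 on the log2 scale (limma adjusted p = 0.0075), and RAB31 fell by 0.46 ± 0.0528 (limma adjusted p = 9.81e-05). The call of RAB22A was lost, with adjusted p from 0.0518 to 0.0577, when shControl replicate 1, 2 or 3 or shZDHHC20 replicate 1 was left out, while its log2 fold change stayed between 0.28 and 0.31 in those fits. RAB31 was 6.42 ± 0.248 times RAB22A per kb in shControl and 3.76 ± 0.144 times in shZDHHC20 (SD, n = 3). The 2 genes together summed to 79.6% of control per kb (811 ± 32.7 and 646 ± 28.02).

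RAB21, which binds integrins and directs their endocytosis, was lower by a smaller amount. RAB21 (ENSG00000080371) was at 1103, 1154 and 1175 in shControl and at 945, 967 and 976 in shZDHHC20, with no overlap. Its log2 fold change was -0.25 ± 0.0597 (limma adjusted p = 0.0163). The call was lost without shControl replicate 1, 2 or 3 or shZDHHC20 replicate 1, with adjusted p from 0.0526 to 0.1, so that without any 1 of these libraries 2 early endosome RABs, RAB5A and RAB31, were called.

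On recycling endosomes, RAB11A and RAB11B, paralogs that carry receptors back to the plasma membrane, moved in opposite directions by similar amounts. RAB11A (ENSG00000103769) was at 2584, 2834 and 2575 in shControl and at 3089, 2975 and 3145 in shZDHHC20. RAB11B (ENSG00000185236) was at 2056, 2066 and 2097 in shControl and at 1824, 1819 and 1748 in shZDHHC20. The groups did not overlap for either gene, and the gap was narrow for RAB11A. The log2 fold changes were 0.21 ± 0.0543 for RAB11A (limma adjusted p = 0.0264) and -0.21 ± 0.0513 for RAB11B (limma adjusted p = 0.0194). RAB11A lost its call without shControl replicate 1 or 3 or shZDHHC20 replicate 1 or 3 (adjusted p from 0.0893 to 0.157). RAB11B kept its call without shZDHHC20 replicate 2 and lost it without any other 1 library (adjusted p from 0.0633 to 0.107). Their sum per kb was 1308 ± 24.6 in shControl and 1268 ± 12.5 in shZDHHC20, or 96.9% of control.

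RAB17, a RAB of polarized epithelial cells known for recycling and transcytosis, had the largest rise of the called RAB genes from a low level. RAB17 (ENSG00000124839) was at 23.2, 12.1 and 19.0 in shControl and at 43.5, 65.7 and 48.1 in shZDHHC20. Every shZDHHC20 library was above every shControl library, and replicate 2 was the highest. The log2 fold change was 1.56 ± 0.307 (limma adjusted p = 0.00514), and the call was kept when any 1 library was left out (adjusted p of at most 0.0331). RAB4A, which returns receptors by a fast route, was at 843 ± 32.4 and 968 ± 24.3 (log2 fold change 0.20, limma adjusted p = 0.0615) with no overlap, and was called without shZDHHC20 replicate 2 (adjusted p = 0.0265), with quantile normalization (adjusted p = 0.0429, with 11% of all genes called) and with a minimum mean of 5 (adjusted p = 0.0464, with 16.7%). The 2 uncalled recycling RABs with the highest mean normalized counts were RAB14 and RAB35. RAB14 works between the trans-Golgi network and endosomes (log2 fold change 0.03, limma adjusted p = 0.831). RAB35 is a RAB of fast recycling and cytokinesis (0.06, limma adjusted p = 0.739). RAB4B, at 10.7 ± 5.70 and 16.0 ± 2.40, had a log2 fold change of 0.70 that did not pass the test (limma adjusted p = 0.4). RAB15, also not called, was at -0.26.

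On late endosomes and lysosomes, RAB7A, which governs the maturation of late endosomes and their fusion with lysosomes, was lower with the smallest adjusted p of the family. RAB7A (ENSG00000075785) was at 3717, 3808 and 3848 in shControl and at 2761, 2737 and 2748 in shZDHHC20. The groups lay far apart, and the 3 shZDHHC20 libraries were closer to each other than the shControl libraries were. The log2 fold change was -0.46 ± 0.0462 (limma adjusted p = 3.36e-05), or 72.5% of control. RAB7A was the only called RAB gene whose call was kept under every alternative run. The level of RAB5A relative to RAB7A per kb was 0.208 ± 0.00707 in shControl and 0.403 ± 0.0186 in shZDHHC20 (SD, n = 3).

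RAB29, a RAB of the trans-Golgi network and stressed lysosomes known for recruiting the kinase LRRK2, had the largest fall of the called RAB genes. RAB29 (ENSG00000117280) was at 418, 434 and 404 in shControl and at 220, 187 and 252 in shZDHHC20. Every shZDHHC20 library was well below every shControl library. The log2 fold change was -0.94 ± 0.111 (limma adjusted p = 0.000122), or 52.5% of control. RAB24, a RAB linked to autophagy, was at 206, 211 and 226 in shControl and at 131, 257 and 153 in shZDHHC20. Replicate 2 of shZDHHC20 was the highest of all 6 libraries and replicates 1 and 3 were the lowest. Its log2 fold change was -0.31 over all libraries (limma adjusted p = 0.369) and -0.60 without shZDHHC20 replicate 2 (adjusted p = 0.00246).

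RAB32, which acts on lysosome-related organelles and mitochondria, was at 744 ± 36.7 and 668 ± 61.3 (log2 fold change -0.16, limma adjusted p = 0.248) and was called without shZDHHC20 replicate 2 (-0.23, adjusted p = 0.018). RAB12, which directs transferrin receptor to lysosomes, had a log2 fold change of -0.03 (limma adjusted p = 0.869). Of the low genes, RAB7B was at 13.1, 18.1 and 12.01 in shControl and at 0, 12.2 and 5.77 in shZDHHC20 (limma adjusted p = 0.21), and RAB38 was at 0 to 2.12 in all libraries (limma adjusted p = 0.896). Their fitted log2 fold changes, -2.89 and 0.61, depend on the pseudocount because libraries at 0 enter them. RAB7B was called without shZDHHC20 replicate 2 (adjusted p = 0.0354). This list then held 5 called genes, in a fit that called 19.9% of all genes. RAB9A and RAB9B, which return receptors from late endosomes to the Golgi, were not called, RAB9A with means of 227 and 228 and RAB9B with a log2 fold change of -0.30.

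Of the secretory RABs, RAB3B, RAB8B and RAB26 were lower. RAB3B (ENSG00000169213), a RAB of regulated exocytosis, was at 557, 481 and 545 in shControl and at 354, 291 and 330 in shZDHHC20. RAB8B (ENSG00000166128), which carries cargo from the Golgi and recycling endosomes to the plasma membrane, was at 1086, 1144 and 1166 in shControl and at 880, 675 and 847 in shZDHHC20. RAB26 (ENSG00000167964), a RAB of secretory granules, was at 997, 887 and 956 in shControl and at 608, 829 and 625 in shZDHHC20. The groups did not overlap for any of the 3. Replicate 2 of shZDHHC20 was the lowest library for RAB3B and RAB8B and the closest to control for RAB26. The log2 fold changes were -0.70 ± 0.0956 for RAB3B (limma adjusted p = 0.000393), -0.51 ± 0.0898 for RAB8B (limma adjusted p = 0.00247) and -0.47 ± 0.104 for RAB26 (limma adjusted p = 0.00955). RAB26 lost its call without shControl replicate 1 or 3 or shZDHHC20 replicate 1 or 3 (adjusted p from 0.0519 to 0.0919).

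RAB10 and RAB27B had the highest mean normalized counts of the secretory RABs that were not called. RAB10, which moves vesicles to the basolateral surface, was at 4017, 4119 and 4092 in shControl and at 4377, 3989 and 4467 in shZDHHC20 (log2 fold change 0.07, limma adjusted p = 0.475). Its replicate 2 lay below all shControl libraries and the other two above, and without that library it was called higher (0.12, adjusted p = 0.0141). RAB27B, which docks secretory granules and exosome-bearing compartments, was at -0.22 (limma adjusted p = 0.118) and was called without shZDHHC20 replicate 3 (-0.31, adjusted p = 0.0352). RAB3D, a RAB of zymogen-type granules, was at 709 ± 38.2 and 604 ± 37.8 with no overlap (log2 fold change -0.23, limma adjusted p = 0.0694). RAB37, a RAB of secretory granules with low counts here, was at 4.04, 5.02 and 7.01 in shControl and at 0, 2.82 and 1.92 in shZDHHC20 (limma adjusted p = 0.225). RAB8A, RAB13, RAB27A and RAB3A were not called, with log2 fold changes of 0.04, 0.08, -0.19 and -0.40.

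The RABs of the ER and Golgi had the largest summed level per kb, over the longest list, and 16 of 17 were not called. RAB2B (ENSG00000129472), which works between the ER and Golgi, was the exception, at 408, 474 and 359 in shControl and at 283, 262 and 266 in shZDHHC20. The groups did not overlap, and the shControl libraries were the more scattered. The log2 fold change was -0.61 ± 0.105 (limma adjusted p = 0.00223). Its paralog RAB2A was at 1536 ± 44.2 and 1591 ± 9.02 (log2 fold change 0.05, limma adjusted p = 0.627). RAB6A, the main Golgi RAB, was at 3530, 3567 and 3626 in shControl and at 3801, 3454 and 4189 in shZDHHC20 (0.09, limma adjusted p = 0.436), and was called without shZDHHC20 replicate 2 (0.16, adjusted p = 0.0122). RAB1A, which tethers ER vesicles to the Golgi, was at 3308 ± 69.3 and 3424 ± 50.3 (0.05, limma adjusted p = 0.568).

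RAB39A, an endosomal and autophagy-linked RAB counted with this group, was at 75.8, 63.3 and 71.1 in shControl and at 41.3, 41.3 and 53.9 in shZDHHC20, with no overlap and a log2 fold change of -0.63. It just missed the threshold (limma adjusted p = 0.0589) and passed it when only genes with a mean of at least 5 were tested. RAB6C and RAB6D, near-identical copies of RAB6A, had means of 1.996 and 6.89 and log2 fold changes of 1.12 and 1.05 (limma adjusted p = 0.707 and 0.411), and reads could be split between the copies. The direction of RAB6C turned with edgeR and without shControl replicate 3. The other 11 of this list (RAB1B, RAB6B, RAB18, RAB30, RAB33A, RAB33B, RAB36, RAB39B, RAB41, RAB43 and RAB2A above) lay between -0.20 and 0.23.

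Of the other RABs, RAB34, which acts in cilium formation and lysosome positioning, was at 2546 ± 65.2 and 2399 ± 58.6 with no overlap (log2 fold change -0.09, limma adjusted p = 0.333). RAB40C, a RAB with a SOCS box that joins ubiquitin ligases, was at 874 ± 49.5 and 847 ± 66.3 (-0.05, limma adjusted p = 0.764). RAB42, at 16.1 ± 4.31 and 8.62 ± 3.49 with no overlap, had the largest difference of this list (-0.95, limma adjusted p = 0.244). RAB20, RAB23, RAB28, RAB40A and RAB40B were not called, between -0.26 and -0.05.

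The balance between paralogs was compared in 16 pairs, as the log2 ratio of the 2 genes within a library. In 7 pairs the groups did not overlap (RAB22A and RAB31, RAB2A and RAB2B, RAB8A and RAB8B, RAB5A with RAB5B and with RAB5C, RAB11A and RAB11B, and RAB3B and RAB3D). Each of them had an exact two-sided permutation p of 0.1, the smallest that 3 against 3 libraries allow. After Benjamini-Hochberg adjustment over the 16 pairs this p was 0.229, so that no pair could pass a threshold of 0.05. All 7 pairs hold a RAB gene called above, so their count is not separate from those calls. The ratio of RAB22A to RAB31 shifted most among these, from -1.95 ± 0.0563 to -1.18 ± 0.0550 on the log2 scale, a difference of 0.77 (SD, n = 3). RAB11A over RAB11B went from 0.36 ± 0.0843 to 0.77 ± 0.0698, a difference of 0.41. In those 2 pairs both genes were called, in opposite directions. In RAB2A and RAB2B and in RAB8A and RAB8B (differences of 0.66 and 0.54) the B gene was called and the A gene was not. The sums per kb of RAB8A with RAB8B and of RAB3A, RAB3B and RAB3D were 79.0% and 80.5% of control. Without shZDHHC20 replicate 2, 11 pairs did not overlap. Groups of 3 and 2 libraries are separated more easily than 3 and 3, so 11 is not comparable with 7. A share over other gene pairs was not computed for either count.

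The proteins that load, unload and read RABs were described from 4 lists. None of the 8 genes for prenylation and recycling from membranes was called by limma, among them GDI2 (log2 fold change 0.08, adjusted p = 0.41) and CHM (-0.03, adjusted p = 0.82). At an unadjusted p under 0.05 there were 1 higher and 1 lower. edgeR also called none of the 8, and 1 was called without shZDHHC20 replicate 2 or 3. Of 36 exchange factor genes 2 were higher and 4 lower (16.7%), of 35 GTPase-activating protein genes 2 were higher and 4 lower (17.1%), and of 50 effector genes 5 were higher and 5 lower (20%). These shares lay beside 11.5% of all genes tested, but most genes of the lists were well expressed. Of those with a mean of at least 100, 6 of 29 exchange factors, 6 of 32 GTPase-activating proteins and 10 of 44 effectors were called (20.7%, 18.8% and 22.7%), near the 21.7% of all genes at that level. The median log2 fold changes were -0.00139, -0.03 and 0.07. The numbers called were 12, 11 and 18 without shZDHHC20 replicate 2, when 19.9% of all genes were called. Exchange factors called numbered 2 or 3 without any 1 of shControl replicates 1, 2 and 3 and shZDHHC20 replicate 1, and effectors 5 or 6 without the same libraries.

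DENND1B, an exchange factor of RAB35, was at 209 ± 5.98 and 324 ± 27.0 (log2 fold change 0.63 ± 0.0991, limma adjusted p = 0.00113). RAB3GAP1, part of a complex that turns off RAB3 and loads RAB18, rose by 0.29 ± 0.0537 (limma adjusted p = 0.00377). RIN1, an exchange factor of RAB5, fell by 0.37 ± 0.0836 (limma adjusted p = 0.0114), and lost its call without shControl replicate 2 or 3 or shZDHHC20 replicate 1 (adjusted p from 0.0546 to 0.0756). All 3 had groups that did not overlap. Among genes with the TBC domain that speeds GTP hydrolysis, TBC1D9 rose by 0.52 ± 0.0686 (limma adjusted p = 0.000285), while TBC1D8 fell by 0.35 ± 0.0470 (limma adjusted p = 0.000377) and RABGAP1 by 0.50 ± 0.0682 (limma adjusted p = 0.000396). Their groups did not overlap either.

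Among effectors, APPL2, which binds RAB5 on early signalling endosomes, was at 595, 546 and 557 in shControl and at 402, 337 and 348 in shZDHHC20 (log2 fold change -0.65 ± 0.0876, limma adjusted p = 0.000377). Its paralog APPL1, named here after its values were seen, was at 1615, 1650 and 1712 in shControl and at 2098, 1894 and 2114 in shZDHHC20 (0.29 ± 0.0593, limma adjusted p = 0.00604). The 2 genes moved in opposite directions, each without overlap, and APPL1 lost its call without shControl replicate 1 or 2 (adjusted p = 0.0597 and 0.0505). EHBP1, an adaptor of RAB8 and RAB10 to actin, fell by 0.37 ± 0.0510 (limma adjusted p = 0.000433), and OCRL, an inositol phosphatase that binds many RABs, fell by 0.31 ± 0.0518 (limma adjusted p = 0.00172).

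Some called RAB genes share sequence space with other genes. RAB5A, RAB11A and RAB2B overlap the protein-coding genes PP2D1, DENND4A and TOX4 on the other strand, and whether counting used the strand is not given in the sources used here, so that reads of these pairs might not be told apart. The deviation of shZDHHC20 replicate 2 from replicates 1 and 3 went with the GC content of the longest coding transcript over the 42 RAB genes with a mean of at least 100 (Pearson r = 0.48, Spearman rho = 0.52, across genes of 1 library, as a description). For the log2 fold change the same values were -0.15 and -0.18. The part of GC content in the calls was not tested.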

How the data were processed

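RNA-seq was made from PANC-1 cells, 3 shControl and 3 shZDHHC20 libraries, with a directional Illumina kit. The authors deposited 1 normalized signal per gene and library in a table named as FPKM. Each library's values are gene counts divided by 1 size factor, and 100% of values above 0 came out as whole reads within 0.1 read. Columns named siZDHHC20 and NC were matched to shZDHHC20 and shControl by replicate number. The aligner, counting tool and strand setting are not given in the sources used here, and the submitters' processing notes name hg19.

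Symbols came from the reference table (27175 of 27394 identifiers) and otherwise from GENCODE 29 on GRCh38, which gave exon lengths and overlaps. The RAB genes, role lists and named genes were chosen with earlier results of these data known. Every called RAB gene is named, with the 2 uncalled genes of each role list that had the highest mean normalized count. Uncalled RAB genes with an absolute log2 fold change of at least 0.5 are named too, and the 3 smallest adjusted p-values of each machinery list. RAB25, RAB19 and RIMS1 were not analysed here.

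Values were tested as log2(value + 0.1) with limma 3.58.1 (lmFit, eBayes with a mean-variance trend, R 4.3.3), two-sided, over 22189 genes with a mean of at least 1, with Benjamini-Hochberg adjustment over all of them. The design had assumed FPKM, and its test was kept. Fold changes are on that scale. For low genes they depend on the pseudocount, and they can lie above or below the ratio of the group means, mainly where a library is at or near 0. Each result was also computed with edgeR 4.0.16 (TMM) on the recovered reads, quantile normalization, a pseudocount of 1 or 0.01, all genes or a minimum mean of 5, no trend or a replicate block, and without each library. The scripts were tested on simulated data.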

Additional observations from a re-analysis of the deposited data

How the results depend on the processing

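The 13 calls were kept with edgeR, quantile normalization, a pseudocount of 1 or 0.01, all genes tested or a minimum mean of 5, and without shZDHHC20 replicate 2. Without the mean-variance trend 351 genes were called in all, with 1 RAB gene (RAB7A), and among the lists 1 late endosome RAB, 1 exchange factor, 1 GTPase-activating protein, 0 early endosome, 0 recycling, 0 secretory and 0 ER and Golgi RABs and 0 effectors. The cause was not tested. A minimum mean of 5 added RAB39A and RAB4A (15 RAB genes, with 2 ER and Golgi and 4 recycling RABs called), and quantile normalization added RAB4A (14 RAB genes). The replicate numbers did not pair the samples (correlations of deviations -0.0948, -0.156 and -0.0771 over 10908 genes, and no sample correlated best with its own number). With a replicate block 1942 genes and 11 RAB genes were called, with RAB11A and RAB11B lost, leaving 1 recycling RAB.

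Leaving out each library in turn gave 1054 to 4411 genes called, 8 to 20 RAB genes, 2 to 5 early endosome, 1 to 4 recycling, 2 to 5 late endosome, 2 to 4 secretory, 1 to 2 ER and Golgi and 0 other RABs, 0 to 1 prenylation genes, 2 to 12 exchange factors, 4 to 11 GTPase-activating proteins, 5 to 18 effectors and 7 to 11 paralog pairs without overlap. With 1 library left out, groups separate more easily, so these pair counts are not comparable with that of all libraries. The fall in the family's share was -0.00687 to -0.00358 percentage points. RAB7A, RAB29, RAB31, RAB5A, RAB3B, RAB8B, RAB2B and RAB17 were called in each of these fits, and no called gene changed direction under any alternative.

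Over all alternatives the direction turned in 21 of the 46 RAB genes that were not called and in 0 of the 13 called. Among the uncalled genes chosen for naming, with 1 library left out, RAB12 ranged from -0.054 to 0.014 (above 0 without shControl replicate 3), RAB14 from -0.016 to 0.11 (below 0 without shZDHHC20 replicate 3), RAB35 from -0.056 to 0.13 (below 0 without shZDHHC20 replicate 2), RAB38 from -0.54 to 2.08 (below 0 without shControl replicate 2 or shZDHHC20 replicate 1 or 2), RAB40C from -0.11 to 0.00105 (above 0 without shZDHHC20 replicate 3), RAB5C from -0.22 to 0.049 (above 0 without shControl replicate 1 or shZDHHC20 replicate 1 or 3) and RAB6C from -0.51 to 2.17 (below 0 without shControl replicate 3). RAB6C was at -0.024 with edgeR. Genes with a mean under 100 gave few calls at this depth (1 of 17 RAB genes).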

Other observations

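The 2 RAB pseudogenes in the table were left out of the family. RAB43P1 was at 17.2, 19.1 and 20.02 in shControl and at 13.8, 8.45 and 11.5 in shZDHHC20, with no overlap (log2 fold change -0.76, limma adjusted p = 0.249). RAB28P5 was at 17.2, 19.1 and 7.01 in shControl and at 20.1, 13.1 and 10.6 in shZDHHC20 (0.09, limma adjusted p = 0.938). RAB43 itself, at 65.7 ± 12.6 and 57.4 ± 9.44 (SD, n = 3), also overlaps the read-through gene ISY1-RAB43 on its own strand, and its reads could be split among these.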
